A study of Homo sapiens with 7 samples.

Results

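Among the 5 arrays of SUM159 cells carrying a hairpin against SHP2, the 2 titled replicate 2 (SHP2 sh1 replicate 2 and SHP2 sh2 replicate 2) were compared with the other 3 (SHP2 sh1 replicate 1 and SHP2 sh2 replicates 1 and 3), out of 7 arrays in the series. The replicate number comes from the sample titles, but these arrays were singled out because their values had been seen to stand apart. The measured values therefore chose the comparison, and every difference between the 2 and the other 3 arrays is given below as a description, with no test. SUM159 is an established human triple-negative breast cancer line of mesenchymal character. The cells expressed a doxycycline-inducible hairpin, named Ctrl shRNA, SHP2 sh1 or SHP2 sh2 in the titles and CTRL miR, SHP2 miR1 or SHP2 miR2 in the growth conditions, and all 7 cultures, the 2 Ctrl shRNA cultures included, received doxycycline for 15 days. Total RNA (100 ng) was labelled for Human Gene 1.0 ST arrays, which carry a probe set for each transcript. The labels do not say whether arrays of 1 hairpin came from separate cultures or cell derivations, and the general remark on independent experiments in the study's methods does not name these arrays, so the spread between them may be technical, and no replicate number is stated to mark a shared day or batch.

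SHP2 is the phosphatase encoded by PTPN11. It is recruited to activated receptor tyrosine kinases and is needed for full signalling through RAS to ERK, a route that drives growth factor responses and cell cycle entry. A microarray reads the relative brightness of each transcript within a fixed amount of RNA, so it carries no information on total RNA per cell. In such bulk samples, fewer cells of a type and less RNA per cell cannot be told apart. The mitotic genes described below are made late in the cell cycle and are high in dividing cells, small nucleolar RNAs guide chemical modification of ribosomal RNA, and targets of the transcription factor NRF2 supply glutathione, NADPH and detoxifying enzymes.

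Values are log2 expression as deposited (robust multi-array average, RMA), for 18417 genes. The own shift of a hairpin is its replicate 2 minus the mean of its other arrays. The difference of a gene is the weighted mean of both own shifts from a fit with the hairpin as a block, with a weight of 0.43 for SHP2 sh1 and 0.57 for SHP2 sh2, and its standard error (SE) rests on 2 residual degrees of freedom plus what limma borrows across genes. The level of a gene is its mean on the 2 Ctrl shRNA arrays, which the comparison did not use.

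The label check came first. PTPN11 read 9.53 and 9.18 on the Ctrl shRNA arrays, 7.90 and 6.93 on SHP2 sh1 replicates 1 and 2, and 7.96, 7.20 and 7.89 on SHP2 sh2 replicates 1, 2 and 3. All 5 SHP2 arrays lay below both controls. The replicate 2 arrays lay lowest, with a difference of −0.83 (SE 0.11) from the other 3, which is 0.10 above the median difference of genes of like level. Most mesenchymal transcripts examined were bright on every array, with VIM (vimentin) between 11.62 and 12.18 and SPARC between 12.12 and 12.62. FN1 lay between 12.15 and 12.87, CD44 between 10.69 and 12.15, CAV1 between 10.50 and 11.69 and AXL between 9.27 and 10.04. ZEB1 was less bright, between 7.01 and 8.61. ZEB1 (−1.26) and CD44 (−1.08) were lower on the replicate 2 arrays. The epithelial or receptor genes examined were mixed. EPCAM and PGR stayed below 5 on all 7 arrays, and CDH1 and ESR1 lay between 5.16 and 7.42. ERBB2 lay between 7.44 and 8.29, and the keratin KRT8 was bright, between 9.73 and 11.25. Over all genes, expression had a standard deviation of 1.55 on replicate 2 of SHP2 sh1 and 1.42 on that of SHP2 sh2, against 1.67 to 1.80 on the other 5 arrays.

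The feature that ordered the genes first was their brightness, for which they were divided into 4 equal bands by level, a brightness and not a copy number that compares genes. Genes that were bright in the controls were lower on both replicate 2 arrays and genes that were dim were higher. In the brightest band the median own shift was −0.64 in SHP2 sh1 and −0.87 in SHP2 sh2. In the next band it was 0.00 and −0.08, in the one after that 0.40 and 0.51, and in the dimmest band 0.29 and 0.44. The same bands differed by −0.05 to 0.00 at the median between the 2 Ctrl shRNA arrays and by −0.15 to 0.05 between SHP2 sh2 replicates 1 and 3. Set against the control mean, the brightest band stood at −0.61 on replicate 2 of SHP2 sh1 and −1.01 on that of SHP2 sh2, and at 0.00, −0.18 and −0.04 on SHP2 sh1 replicate 1, SHP2 sh2 replicate 1 and SHP2 sh2 replicate 3. Other scalings shrank the trend: the median difference was −0.78 in the brightest band and 0.39 in the dimmest as deposited, −0.52 and 0.028 with equal standard deviations, and −0.22 and 0.048 under cyclic loess. The trend with level removed 38.2% of the variance of the difference across genes. A difference of a gene minus the median of its own bin, of 20 equal bins by level, is called its difference from genes of like level below.

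**Figure D1:**
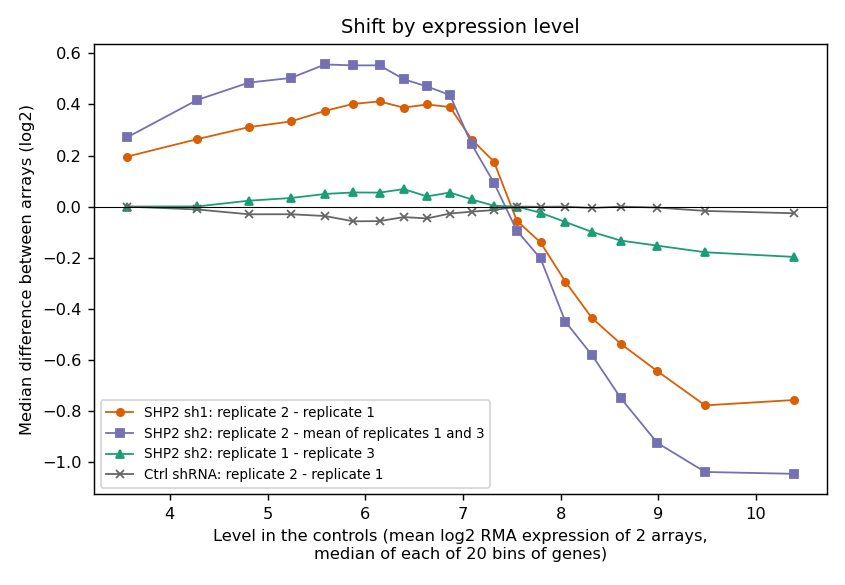
Median difference between arrays (y axis, log2) for 20 equal bins of genes ordered by their level on the 2 Ctrl shRNA arrays (x axis, log2 RMA). Circles and squares show the own shifts of SHP2 sh1 and SHP2 sh2, which lie above 0 in dim genes and below 0 in bright genes, while crosses (Ctrl shRNA replicate 2 minus 1) lie near 0 and triangles (SHP2 sh2 replicate 1 minus 3) run slightly the same way, to about −0.2.

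Counted by gene, 2640 genes were at least 1 log2 unit lower on the replicate 2 arrays (14.3% of 18417) and 207 at least 1 higher (1.12%). Of the 2640 lower genes, 1794 lay in the brightest band and 23 in the dimmest. The 207 higher genes were spread as 43, 70, 60 and 34 from the dimmest to the brightest band. This upper count rested on few arrays: it was 356 without either SHP2 sh1 array, 324, 495 and 154 without SHP2 sh2 replicate 1, 2 or 3, and the lower count ran from 2356 to 2857. The threshold cut a continuous range: SEC11C, at −1.00002, was just inside it and VPS4B, at −0.999679, just outside, as were ALPG at 1.00037 and FAM222A at 0.999319 on the upper side. On both replicate 2 arrays, 5399 genes (29.3%) lay below all 3 other SHP2 arrays and 7556 (41.0%) lay above all 3. The first share ran from 2.58% in the dimmest band to 67.8% in the brightest, and the second from 61.7% to 7.23%. Counts of list members below or above all 3, given later, are to be read against these shares.

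The displacement was common to both hairpins. Across genes, the own shifts of SHP2 sh1 and SHP2 sh2, which share no array, correlated with r = 0.846, and 15828 genes (85.9%) had the same sign in both. With the trend on level removed r was 0.793. Genes are not independent replicates, and all arrays were normalized together. The replicate 2 arrays were also chosen because their values stood apart. A high r and a large share of like signs were thus partly built into the choice, and they only describe it. The own shifts had a standard deviation over genes of 0.784 in SHP2 sh1 and 0.798 in SHP2 sh2, compared with 0.231 for the difference of the 2 controls. SHP2 sh2 replicate 1 lay partway along the same axis: its difference from replicate 3 correlated across genes with the own shift of SHP2 sh1 at r = 0.491, whereas the difference between the 2 controls gave r = −0.06 with the SHP2 sh1 shift and −0.03 with the SHP2 sh2 shift.

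**Figure D2:**
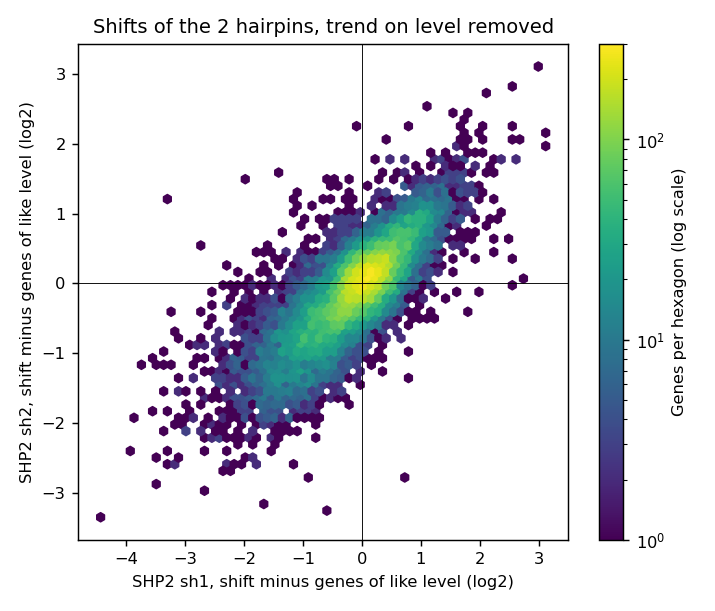
Own shift of SHP2 sh1 (x axis, log2) against that of SHP2 sh2 (y axis, log2), each minus the median of genes of like level. Y-linked genes and XIST are not drawn. Colour gives the number of genes per hexagon on a log scale. The cloud runs along the diagonal (r = 0.793 over all 18417 genes) and has a longer tail toward genes lower on both replicate 2 arrays.

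The lowest single genes were of mixed function and included enzymes, transporters and a small nucleolar RNA. UGDH, which makes UDP-glucuronate, read 9.95 on SHP2 sh1 replicate 1 and 6.63 on replicate 2, and 8.48, 6.31 and 10.68 on SHP2 sh2 replicates 1, 2 and 3. Its difference was −3.29 (SE 0.70), and the controls, at 9.24 and 9.33, lay with the other SHP2 arrays. GCLM, the modifier subunit of the enzyme that starts glutathione synthesis, read 9.71 and 6.63 on SHP2 sh1 replicates 1 and 2, and 8.85, 6.09 and 9.65 on SHP2 sh2 replicates 1, 2 and 3, a difference of −3.12 (SE 0.27). SLC7A11, which imports the cystine needed for glutathione, read 10.86 and 8.06 on SHP2 sh1 and 9.75, 7.34 and 11.12 on SHP2 sh2 in the same order, a difference of −2.97 (SE 0.45). In each of these genes both replicate 2 arrays lay more than 1 log2 unit below every other array, controls included.

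The 10 lowest genes by the smaller of their own shifts also held DPM1, the catalytic subunit of dolichol-phosphate mannose synthase (−3.09), NT5E, the adenosine-producing ectoenzyme CD73 (−3.02), the C/D box small nucleolar RNA SNORD78 (−2.96), the sterol synthesis enzyme MSMO1 (−2.93), KYNU of tryptophan breakdown (−2.89) and the aldo-keto reductase AKR1C1 (−2.81). The mean over its several probe sets gave AKR1C1 a difference of −1.60. CP, the copper-carrying ferroxidase ceruloplasmin, had the lowest difference of the 10, at −3.38 (SE 0.64), but in another arrangement. It read 6.40 and 6.65 in the controls, 10.25 and 6.22 on SHP2 sh1 replicates 1 and 2, and 7.36, 5.38 and 9.16 on SHP2 sh2 replicates 1, 2 and 3. Here the other 3 SHP2 arrays lay above the controls, and SHP2 sh1 replicate 2 lay just below both controls, so most of the difference lay in the height of the other arrays.

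NRF2 target genes were then gathered as a list, chosen after these values were seen, and they carried both components. Of 28 genes 25 were measured, 22 lay below all 3 other SHP2 arrays on both replicate 2 arrays and 1 (OSGIN1) lay above. The median difference was −1.84, with own shifts of −1.51 and −1.86, and −1.03 from genes of like level, where all genes had a median difference of 0.15. Against the control mean the list stood at −0.51 on SHP2 sh1 replicate 2 and −0.83 on SHP2 sh2 replicate 2, and at 0.56, 0.06 and 0.91 on SHP2 sh1 replicate 1 and SHP2 sh2 replicates 1 and 3. Both replicate 2 arrays were thus below the controls, 2 of the other arrays above them and the third near them. AKR1C2, another aldo-keto reductase, read 12.13 and 9.52 on SHP2 sh1 and 11.26, 8.52 and 12.14 on SHP2 sh2, around controls of 10.70 and 10.81. The NADPH-producing malic enzyme ME1 (−2.47) and the pentose phosphate dehydrogenase PGD (−2.25) were lower too, and the efflux pump ABCC2 had a difference of −2.87. Under the alternatives of processing that of ABCC2 shrank to as little as −0.57. BLVRB and AKR1B10 overlapped between the arrays.

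Of the lists by function, that of mitotic genes had the largest share of members below the other arrays. Of 52 genes 51 were measured, and 49 (96.1%) lay below all 3 other SHP2 arrays on both replicate 2 arrays and none above, where 29.3% of all genes lay below. The median level of the list was 8.60, in the brightest band, where 67.8% of genes lay below. The exceptions were UBE2C (−0.25) and CDC25C (−0.12). The median own shift was −1.26 in SHP2 sh1 and −1.87 in SHP2 sh2, the median difference −1.63, and the difference from genes of like level −0.87. Against the control mean the list stood at −1.55 on SHP2 sh1 replicate 2 and −2.02 on SHP2 sh2 replicate 2, and at −0.23, −0.45 and 0.10 on SHP2 sh1 replicate 1 and SHP2 sh2 replicates 1 and 3. The 3 members with the largest shared shift were CDK1, DEPDC1 and DLGAP5.

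The promoters of these 3 genes are printed because the mitotic genes were displaced together and their promoters are known for paired CCAAT and TTTGAA-type elements. Each is 300 bases, from 250 before to 50 after the annotated start in RefSeq (GRCh38.p14), 5′ to 3′ on the strand of the gene. CDK1, the kinase that drives entry into mitosis, lies on the plus strand at chr10:60778081-60778380. DEPDC1 is on the minus strand at chr1:68497033-68497332, and DLGAP5, a spindle protein, on the minus strand at chr14:55191536-55191835. Capitals mark the letters CCAAT and TTTGAA on either strand (ATTGG and TTCAAA on the strand printed).
CDK1: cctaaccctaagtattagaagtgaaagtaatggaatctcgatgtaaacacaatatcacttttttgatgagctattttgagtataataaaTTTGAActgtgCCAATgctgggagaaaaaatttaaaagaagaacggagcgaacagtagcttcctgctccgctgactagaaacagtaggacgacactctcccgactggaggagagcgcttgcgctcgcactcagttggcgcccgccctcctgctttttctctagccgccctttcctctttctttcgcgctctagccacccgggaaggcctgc
DEPDC1: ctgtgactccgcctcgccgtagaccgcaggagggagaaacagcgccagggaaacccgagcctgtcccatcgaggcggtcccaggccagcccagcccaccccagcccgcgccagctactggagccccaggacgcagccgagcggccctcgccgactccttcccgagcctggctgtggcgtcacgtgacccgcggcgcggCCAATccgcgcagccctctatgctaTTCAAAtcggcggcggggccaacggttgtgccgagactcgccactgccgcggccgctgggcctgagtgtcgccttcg
DLGAP5: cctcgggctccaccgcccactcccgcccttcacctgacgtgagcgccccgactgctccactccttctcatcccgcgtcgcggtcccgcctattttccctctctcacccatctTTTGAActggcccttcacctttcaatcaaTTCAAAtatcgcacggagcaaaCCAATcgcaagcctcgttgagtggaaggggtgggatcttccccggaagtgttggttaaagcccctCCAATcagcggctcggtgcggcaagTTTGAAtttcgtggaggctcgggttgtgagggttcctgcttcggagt

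Each of these 3 windows held both motifs. Among the 43 mitotic genes with a promoter in the table, 33 (76.7%) held CCAAT on either strand and 28 (65.1%) held TTTGAA, compared with 35.7% and 15.4% of all 27305 promoters and 36.4% and 11.8% of the 13769 of protein-coding genes on the array. The motifs do not overlap in letters. These shares describe the list, not its measured difference: a match is no proof of a binding site.

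CDK1 read 8.33 on SHP2 sh1 replicate 1 and 5.74 on replicate 2, and 7.30, 4.87 and 8.18 on SHP2 sh2 replicates 1, 2 and 3. Its controls were 8.30 and 7.96, so the replicate 2 arrays lay more than 2 log2 units below both, with a difference of −2.75 (SE 0.30) from the other SHP2 arrays. DEPDC1 had a difference of −2.62 (SE 0.22) and DLGAP5 of −2.41 (SE 0.38). TOP2A, the topoisomerase that untangles chromosomes, read 9.94 and 8.35 on SHP2 sh1 and 9.60, 7.83 and 9.99 on SHP2 sh2, and the proliferation antigen MKI67 read 9.05 and 8.17 on SHP2 sh1 and 9.22, 7.89 and 9.44 on SHP2 sh2. Both were lowest on the replicate 2 arrays. MKI67 differed from genes of like level by only −0.27, and TOP2A by −0.87.

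Genes of DNA replication and the G1/S transition were lower to a lesser degree and less uniformly. Of 53 genes 51 were measured, 38 lay below all 3 other SHP2 arrays and 3 above, with own shifts of −0.48 and −0.91, a median difference of −0.72 and −0.50 from genes of like level. The loader of the replicative helicase CDC6 read 8.38 and 6.19 on SHP2 sh1 and 8.14, 5.75 and 8.58 on SHP2 sh2, a difference of −2.43 (SE 0.20), and the helicase subunit GINS1 differed by −2.03. E2F1, E2F2 and CDT1 had differences of 0.46, 0.54 and 0.42. Among the 45 promoters found for this list, 1 (2.22%) held TTTGAA, 24 (53.3%) CCAAT and 19 (42.2%) GCGGGAA, an E2F-type motif present in 4 (9.30%) of the mitotic promoters, 6.56% of all promoters and 9.01% of those of protein-coding genes on the array. The 57 replication-dependent histone genes had a median difference of −0.11, which became 0.08 without SHP2 sh2 replicate 2. Own shifts were 0.08 in SHP2 sh1 and −0.31 in SHP2 sh2, and 11 genes lay below and 3 above. Of 24 p53 targets and cell cycle inhibitors 21 were measured, with 8 below, 6 above and a median difference of −0.20, which is 0.01 from genes of like level. Within it MDM2, which degrades p53, was at −2.10 and CDKN1A, the inhibitor p21, at −1.10.

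**Figure D3:**
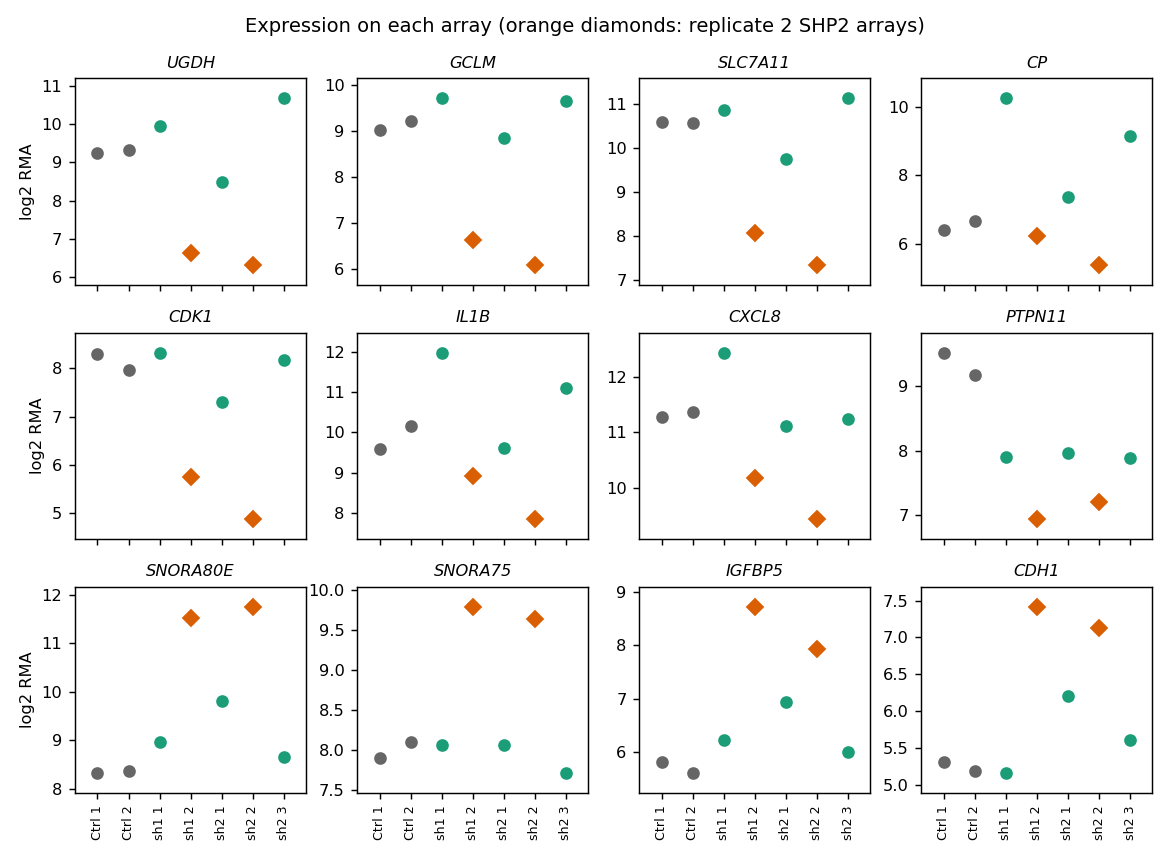
log2 RMA expression (y axis, a separate range for each gene) of 12 genes on each of the 7 arrays (x axis): grey circles are Ctrl shRNA, green circles the other SHP2 arrays and orange diamonds the replicate 2 SHP2 arrays. The diamonds lie below every other SHP2 array in the upper 8 panels and above every other array in the lower 4.

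Inflammatory cytokines and targets of NF-kB, a list that holds the chemokine CXCL8, were lower on both replicate 2 arrays, with a median difference of −1.34 (own shifts −1.53 and −1.08) and −0.63 from genes of like level. Of 29 genes 27 were measured, 17 (63.0%) lay below all 3 other SHP2 arrays and 2 above, where 67.8% of the brightest band lay below. Against the control mean the list stood at −0.20 and −0.76 on replicate 2 of SHP2 sh1 and SHP2 sh2, at 0.97 on SHP2 sh1 replicate 1, and at 0.01 and 0.24 on SHP2 sh2 replicates 1 and 3, so most of the SHP2 sh1 shift lay in the height of its replicate 1. CXCL8 read 11.27 and 11.38 in the controls, 12.44 and 10.18 on SHP2 sh1 replicates 1 and 2, and 11.12, 9.44 and 11.25 on SHP2 sh2 replicates 1, 2 and 3. Its replicate 2 arrays were the lowest 2 of 7, with a difference of −1.97 (SE 0.16) and −1.03 from genes of like level. The cytokine IL1B read 11.98 and 8.91 on SHP2 sh1 and 9.62, 7.85 and 11.10 on SHP2 sh2, a difference of −2.75, and IL1A (−2.74), IL6 (−2.58) and the chemokine CXCL1 (−1.72) were ordered likewise. The chemokine CCL2 was not: it read 8.33 and 7.18 on SHP2 sh1 and 8.59, 8.17 and 6.64 on SHP2 sh2, over controls of 5.83 and 6.06, and the arrays overlapped.

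Output genes of ERK, the pathway SHP2 feeds, were lower by a median of 1.00 in the 23 measured of 24 (16 below, 1 above, −0.45 from genes of like level). The share below was 69.6%, where 67.8% of the brightest band lay below. The EGF receptor ligands EREG (−2.67) and HBEGF (−2.65) had the largest shared shifts beside IL6. DUSP6, the ERK phosphatase induced by ERK itself, read 9.70 and 9.91 in the controls, 10.13 and 8.79 on SHP2 sh1 and 8.98, 7.70 and 9.37 on SHP2 sh2. The knockdown arrays thus spanned both sides of the controls, with the replicate 2 arrays lowest. The transcription factor ETS1 read 8.84 and 8.48 on SHP2 sh1 and 8.67, 8.08 and 8.54 on SHP2 sh2, a difference of −0.45 (SE 0.11) that became 0.08 under cyclic loess scaling.

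Interferon-stimulated genes showed the widest gap between hairpins of the lists examined: the median own shift was −1.72 in SHP2 sh1 and −0.60 in SHP2 sh2, with 22 of 38 measured genes below all 3 other arrays, 3 above and a median difference of −1.10. Within it IFI44 differed by −2.10 and the helicase DDX60 by −1.97. Set against the control mean, the list stood at −1.23 and −1.76 on replicate 2 of SHP2 sh1 and SHP2 sh2. It stood at 0.25 on SHP2 sh1 replicate 1, and at −0.96 and −0.89 on SHP2 sh2 replicates 1 and 3. The wide gap thus lay in the other arrays, and replicate 2 of SHP2 sh2 was the lower replicate 2 array. The share of members below was 57.9%, where 67.8% of the brightest band lay below. Whether the 2 hairpins differ there was not tested. Hypoxia and glycolysis genes had own shifts of −1.22 and −0.55 and a median difference of −0.85, with 19 of 31 measured genes below and none above. Among them were the collagen prolyl hydroxylase P4HA1 (−2.17), the lactate dehydrogenase LDHA (−1.61) and the glucose transporter SLC2A1 (−1.34). From genes of like level this list differed by −0.16 only, and its share below was 61.3%. Set against the control mean, it stood at −0.63 and −0.92 on replicate 2 of SHP2 sh1 and SHP2 sh2. On SHP2 sh1 replicate 1 it stood at 0.63, and on SHP2 sh2 replicates 1 and 3 at −0.48 and −0.18.

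Proteasome subunits and chaperones were lower as well, and the part shared with genes of like level varied between lists. Proteasome subunits had a median difference of −1.21, with own shifts of −1.20 and −1.32, and 25 of 28 measured genes (of 31) lay below and 1 above. PSMA3 read 9.003 and 6.84 on SHP2 sh1 and 8.49, 6.38 and 9.13 on SHP2 sh2, a difference of −2.32. PSMA2 (−2.30) and the ATPase PSMC6 (−2.22) were close to it, and the ubiquitin receptor PSMD4 had the highest difference of the list, at 0.18. From genes of like level the subunits differed by −0.42. Chaperones (19 of 21 measured below, none above, −0.45 from genes of like level) included HSPH1 (−2.15), the mitochondrial HSPD1 (−1.85) and the chaperonin subunit CCT5 (−1.84).

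Mitochondrial ribosomal proteins had a median difference of −0.74 and −0.40 from genes of like level, with 54 of 72 below and 5 above. Subunits of oxidative phosphorylation (69 measured, 44 below, 11 above) had −0.68, splicing factors (43 measured, 30 below, 1 above) −0.70 and lysosomal genes (37 measured, 23 below, 5 above) −0.74. These 3 lists lay within 0.1 of genes of like level, at −0.04, −0.04 and −0.08. Of their members 63.8%, 69.8% and 62.2% lay below, where 67.8% of the brightest band did. Sterol synthesis genes (18 measured, 10 below, 4 above) had −0.55 and −0.17 from genes of like level, with the desaturase SC5D at −2.81 and CYP51A1 at −1.95. Their share below was 55.6%, where 35.6% lay below in the band of their median level, next to the brightest. Genes of the amino acid and ER stress response (35 measured, 23 below, 4 above) had −0.73 and −0.28 from genes of like level. Among them were the folate enzyme MTHFD2 at −2.15 and the tryptophan-tRNA ligase WARS1 at −1.99. The share below in this list was 65.7%, where 67.8% of the brightest band lay below.

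Other bright lists lay above the trend on brightness. Cytosolic ribosomal proteins had a level of 10.44 at the median, own shifts of −0.14 and −0.48, and a difference of −0.32, which is 0.49 above genes of like level and became 0.48 under cyclic loess scaling and 0.14 with equal standard deviations. Of 58 measured members (of 79), 33 lay below all 3 other SHP2 arrays and 7 above, from RPS13 at −1.64 upward. Translation factors, at −0.69 and 0.18 above genes of like level (0.06 under cyclic loess), had 29 of 34 measured members below and none above, led by the initiation factor subunit EIF2S1 (−2.43).

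Collagens and matrix genes differed by −0.12 at the median (0.33 and 0.25 under those scalings), with 7 of 37 measured members below, 5 above and 0.46 above genes of like level. Actin cytoskeleton genes and targets of SRF differed by −0.24 (0.55 and 0.33), with 13 of 28 below and 4 above. COL1A1, the main fibrillar collagen, read 11.48 and 11.90 on SHP2 sh1 and 11.52, 11.48 and 11.77 on SHP2 sh2, so replicate 2 lay highest of these 5 arrays in SHP2 sh1 and lowest in SHP2 sh2. GAPDH overlapped too (−0.29, above 0 under both scalings), and ACTB differed by −0.35, also above 0 under both. HPRT1, a housekeeping gene of nucleotide salvage, read 8.82 and 6.69 on SHP2 sh1 and 7.99, 6.52 and 8.31 on SHP2 sh2. It differed by −1.84 (SE 0.18), far more than GAPDH and ACTB, also in general use as reference genes.

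Targets of YAP and TAZ split around 0, with 9 of 23 below, 7 above and a median difference of −0.12 that became 0.02 under cyclic loess scaling. The largest shared shifts beside NT5E were DOCK5 (−1.66) and ASAP1 (−1.37).

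**Figure D4:**
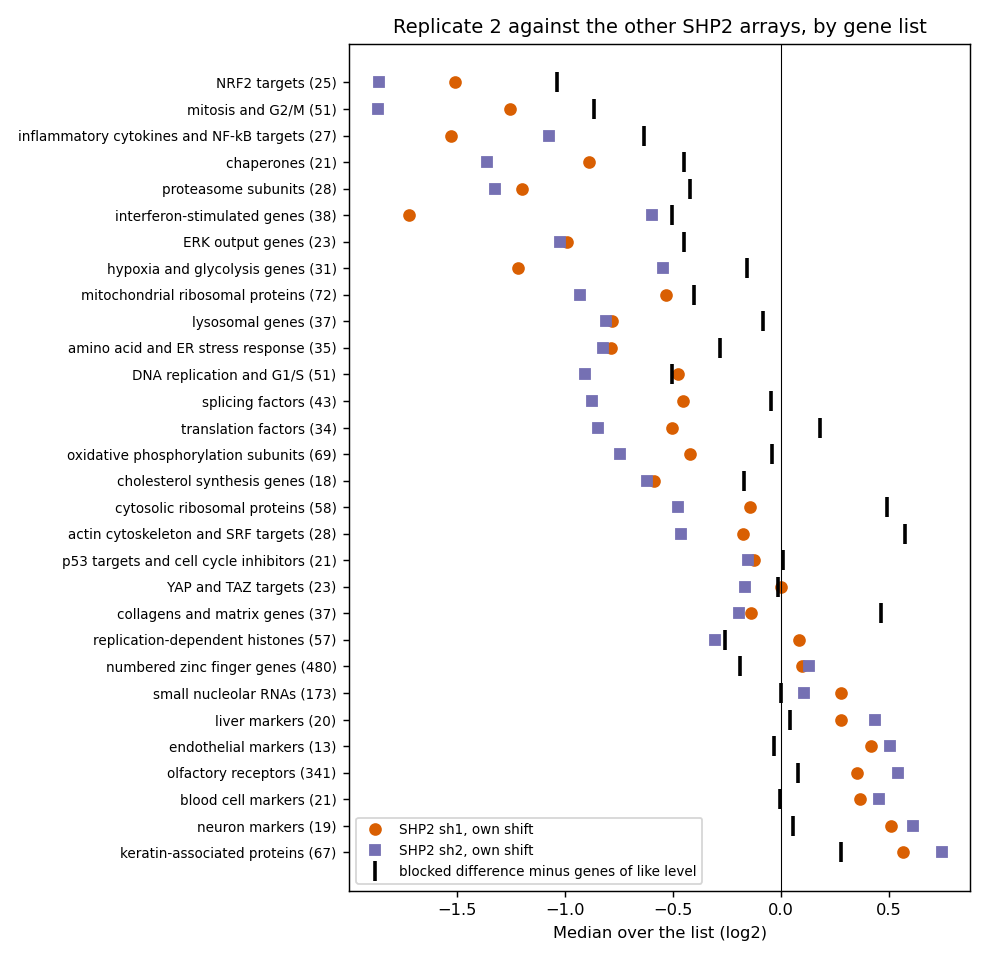
Median over each gene list (number of measured genes in brackets) of the own shift of SHP2 sh1 (circles) and SHP2 sh2 (squares), and of the blocked difference minus genes of like level (bars), all in log2. Under other scalings the sign of the median difference changed in cytosolic ribosomal proteins, translation factors, actin cytoskeleton genes, collagens, YAP and TAZ targets, zinc finger genes and small nucleolar RNAs. NRF2 targets (chosen after values were seen) and mitotic genes lie farthest left in the squares and bars, and interferon-stimulated genes (−1.72) in the circles.

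At the upper end the leading genes were small RNAs. SNORA80E, an H/ACA box small nucleolar RNA, read 8.32 and 8.38 in the controls, 8.96 and 11.53 on SHP2 sh1 replicates 1 and 2, and 9.82, 11.76 and 8.65 on SHP2 sh2 replicates 1, 2 and 3. Its difference was 2.54 (SE 0.38), the largest of the 10 highest genes, and SHP2 sh2 replicate 1 lay between the 2 sets. SNORA7B (2.17), SNORA60 (1.96), SNORA75 (1.74) and SNORA49 (1.68) were the next of this class. SNORA75 read 8.06 and 9.79 on SHP2 sh1 and 8.06, 9.64 and 7.71 on SHP2 sh2, with controls of 7.89 and 8.10, so that the 5 arrays other than replicate 2 lay between 7.71 and 8.10.

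The H/ACA class guides conversion of uridine to pseudouridine and the C/D class 2′-O-methylation. Their values overlapped, from −0.69 to 2.54 in the first and from −2.96 to 1.57 in the second, and the difference between the classes was not tested. Of 61 SNORA genes, 41 lay above all 3 other SHP2 arrays and 2 below, with a median difference of 0.65, and 15 were at least 1 higher and none 1 lower. The H/ACA median was 0.75 under cyclic loess and 0.88 with equal standard deviations. Of 115 SNORD genes 34 lay above and 31 below, with a median of 0.05 (−0.17 and −0.43 under those scalings), and 10 were at least 1 higher and 24 at least 1 lower. Among all genes 41.0% lay above and 29.3% below. The 69 SNORD genes outside the repeated imprinted clusters had a median of −0.32, the 20 SNORD116 copies 0.39 and the 20 SNORD115 copies 0.18, both below 0 (−0.12 and −0.58) with equal standard deviations. The 6 SNORD113 and SNORD114 copies had −1.28, but none of them separated the sets, since SHP2 sh2 replicate 1 stood at −2.70 against the control mean. Copies within these clusters are near-identical in sequence, so their values may share probes. Other small nuclear and RNase components (19 genes) had a median of 0.66 with 13 above and none below. RPPH1, the RNA of RNase P, read 9.62 and 11.94 on SHP2 sh1 and 10.41, 11.60 and 10.54 on SHP2 sh2 (difference 1.64). The 179 microRNA hairpins had a median of 0.41 at low brightness.

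Of 175 genes annotated as small nucleolar RNA, 33 (18.9%) were at least 1 above genes of like level, compared with 553 of all genes (3.00%), while 1398 of all genes (7.59%) were at least 1 below. The class was spread both ways and not shifted as a whole. The median difference of the 175 from genes of like level was 0.003. As deposited, 25 of them were at least 1 higher and 24 at least 1 lower. Under scaling to equal standard deviations the median of the 173 small nucleolar RNAs listed turned from 0.20 to −0.04. By type, the 207 genes at least 1 higher comprised 142 protein-coding genes, 25 small nucleolar, 7 small nuclear and 7 microRNA genes, with the rest in other types.

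Higher protein-coding genes in the leading 10 were PLXDC1 (2.00), the growth factor binding protein IGFBP5 (1.92), PAMR1 (1.69), BRINP2 (1.69) and the basal keratin KRT15 (1.56). IGFBP5 read 5.81 and 5.60 in the controls, 6.22 and 8.73 on SHP2 sh1, and 6.94, 7.94 and 5.999 on SHP2 sh2. KRT15 overlapped, at 7.38 and 8.20 on the replicate 2 arrays and 7.54 on SHP2 sh2 replicate 1. The epithelial adhesion gene CDH1 (E-cadherin) read 5.32 and 5.19 in the controls, 5.16 and 7.42 on SHP2 sh1, and 6.20, 7.12 and 5.61 on SHP2 sh2, a difference of 1.66 (SE 0.32). It was dim in the controls and exceeded genes of like level by 1.21, while EPCAM, another epithelial surface gene, overlapped between the arrays and its own shifts had opposite signs.

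Against the trend of bright genes, the 6 highest of the brightest band were SNORA80E, SNORA7B, SNORD116-24 (1.57), SNORD32A (1.49), LOC107987020 (1.43) and the immunoglobulin constant gene IGKC (1.57, but 0.12 when its probe set was chosen on the 5 other arrays). Against the trend of dim genes, the 6 lowest of the dimmest band were FAM177A1 (−1.72), the transporter SLC10A5 (−1.76), the interleukin 13 decoy receptor IL13RA2, the ion channel TRPA1 (−1.65), TEX9 (−2.01) and TAF1A (−1.36), part of the initiation factor for ribosomal RNA transcription. IL13RA2 read 5.91 and 4.52 on SHP2 sh1 and 4.15, 3.84 and 8.89 on SHP2 sh2, so the sets overlapped, and its difference of −2.13 (SE 1.53) was −0.85 without SHP2 sh2 replicate 3. FAM177A1 separated cleanly, at 4.02 and 3.61 on the replicate 2 arrays and 4.96 to 5.97 on all others.

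Genes that a breast line should not express were higher together. Of 341 olfactory receptors, with a median level of 4.68, 234 (68.6%) lay above all 3 other SHP2 arrays on both replicate 2 arrays and 1 below. In the dimmest band of all genes 61.7% lay above. The median difference of the receptors was 0.45, within 0.08 of genes of like level. Among the receptors brighter than the median gene, it was −0.25 instead. Of 67 keratin-associated proteins, which belong to hair, 47 lay above and none below, with a median of 0.68 and 0.28 above genes of like level. Blood cell markers (21 of 24 measured, 15 above, none below, median 0.47) had a summed log2 level of 123.3 and 126.3 on the replicate 2 arrays, 115.4 to 117.9 on the other 3 and 114.3 to 116.3 in the controls. Endothelial markers (13 measured, 7 above, 1 below) summed to 87.9 and 88.1, against 82.4 to 84.3 on the other 3. Neuron and glia markers (19 measured, 13 above, none below) summed to 115.2 and 121.7, against 109.6 to 112.2 on the other 3. Liver markers (20 measured, 13 above, 1 below) summed to 108.6 and 112.7, against 104.1 to 105.2 on the other 3, though those brighter than the median gene had a median difference of −0.11. All 4 lists had median differences of 0.44 to 0.55 and lay within 0.1 of genes of like level, so markers of 4 unrelated tissues were higher to the degree that genes of their brightness were. RMA values have no zero, and the part of such cells in the other differences was not tested. The T cell receptor subunit CD3E, for example, read 5.91 and 6.01 on the replicate 2 arrays and 5.14 to 5.48 on the others.

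**Figure D5:**
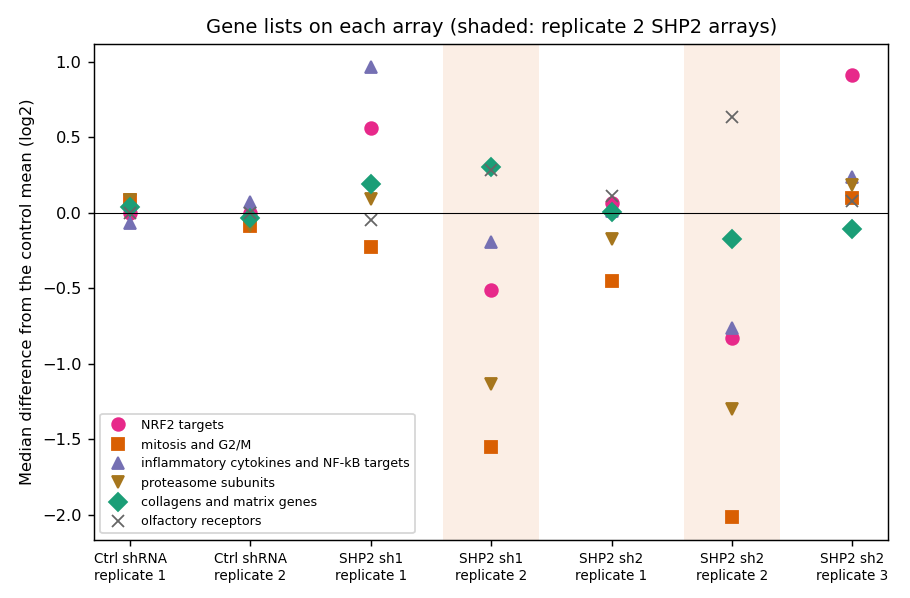
Median over each of 6 gene lists of the difference from the control mean (y axis, log2) on each of the 7 arrays (x axis), with the replicate 2 SHP2 arrays shaded. Mitotic genes stand at −1.55 and −2.02 on the shaded arrays, whereas NRF2 targets are below 0 on the shaded arrays and above 0 on the other 3 SHP2 arrays.

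Numbered zinc finger genes (480) were not set apart in this direction. Their median difference of 0.13 compares with 0.15 for all genes, was −0.19 from genes of like level, and became −0.15 under cyclic loess and −0.08 with equal standard deviations. Of them 174 (36.25%) lay above, where 41.0% of all genes did, and 64 (13.3%) below. In the band of their median level, 62.0% of genes lay above and 11.3% below.

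Gene length was related to the part of the difference that brightness did not carry. With genes in 4 equal groups by span in the annotation, from the shortest to the longest, the median difference from genes of like level was 0.14, 0.04, −0.09 and −0.11. The order is a description over genes, which are not independent, and it includes the short small RNAs named above.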

How the data were processed

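The 7 Human Gene 1.0 ST arrays were processed by the authors with oligo, for which the sources used here give no version, and the deposited log2 RMA values are background-corrected, quantile-normalized and summarised per probe set. These were used as given. Normalizing each array to a common distribution makes every difference relative to the other transcripts on the array. The labels name an RNeasy kit and the array methods of the study TRIzol for RNA extraction. No depth exists for arrays: their number, 2 against 3, limits the precision.

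Of 33297 probe sets 19460 had 1 symbol in the platform annotation, and the gene IDs of 19429 of these were found in RefSeq (GRCh38.p14). Each gene was represented by the probe set of largest interquartile range across all 7 arrays, a choice that concerned 769 of 18417 genes. Probe sets with several symbols (1754) or not listed (12083) named no gene. limma (3.58.1, R 4.3.3) fitted replicate 2 status with the hairpin as a block, and the SE is that of eBayes. The weighted mean of both own shifts, which equals the fitted difference, recovered known differences in simulated data after the trend on level was removed. The SE was not checked there. Python 3.11.15 with numpy 2.4.6 and pandas 2.3.3 made the summaries. The arrays, genes and gene lists were chosen with earlier results of these data known, and the NRF2 list after the values here were seen. Named genes were the 10 lowest and 10 highest by the smaller own shift where both shared a sign, the 6 against the trend in the brightest and dimmest bands of level (4 equal bands), up to 3 of each list in the direction of its median, and PTPN11, CXCL8, ETS1, HPRT1, GAPDH, ACTB and MKI67. Others (list exceptions, NRF2 targets, cell type markers, and CXCL1, CCL2, DUSP6, CDKN1A, TOP2A, COL1A1, RPPH1, E2F1, E2F2 and CDT1) were named after their values were seen. Promoter base composition was not compared, since 77.3% of genes had a promoter, too few for that check.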

Additional observations from a re-analysis of the deposited data

Results flagged for a closer look

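In 5 results the own shifts of the 2 hairpins had opposite signs, though that of YAP and TAZ targets in SHP2 sh1 was 0.00. Set against the control mean, these targets stood at −0.12 and −0.17 on SHP2 sh1 replicates 1 and 2, so they were no clear case. In the others replicate 2 of SHP2 sh1 lay to one side of its replicate 1. Replicate 2 of SHP2 sh2 lay to the opposite side of both its other arrays. Whether the hairpins differ there was not tested. The median of replication-dependent histones was 0.08 in SHP2 sh1 and −0.31 in SHP2 sh2, and that of YAP and TAZ targets 0.00 and −0.17. EPCAM, which was dim on all arrays, had own shifts of −0.20 and 0.57, COL1A1 of 0.42 and −0.17, and UBE2C of 0.25 and −0.63. CCL2 (−1.15 and 0.56) and BLVRB (0.10 and −0.27) also had own shifts of opposite sign, but replicate 2 of SHP2 sh2 lay between its other 2 arrays. The 12083 probe sets not listed in the annotation, which entered no comparison, had a median difference of 0.24 between the replicate 2 and the other SHP2 arrays, where the 2 Ctrl shRNA arrays differed by 0.00 at the median.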

How the results depend on the processing

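No value changed sign in the brightest and dimmest bands of genes or in the correlation of the shifts, under the alternatives run. These were other probe sets per gene, filters on dim genes, other scalings, no hairpin block and the controls as reference. The level was also taken from the other SHP2 arrays, and each array was left out in turn. Counts over all genes cannot turn negative, so only their sizes could move. Sizes did move. With genes above the median level, 94 genes were at least 1 higher, 1858 lay above all 3 other arrays, the dimmest band stood at 0.14 and the correlation was 0.834; with genes above level 6 the values were 4149 above and 0.825. Scaling to the same median and standard deviation gave 551 genes at least 1 higher, −0.52 in the brightest band and 0.028 in the dimmest, and cyclic loess gave 566, −0.22 and 0.048. These 2 scalings moved the median of all genes by −0.13 and −0.12. With the controls as reference 349 genes were at least 1 higher. Leaving out 1 array, the count at least 1 higher ran from 154 (without SHP2 sh2 replicate 3) to 495 (without SHP2 sh2 replicate 2), with 356 without either SHP2 sh1 array and 324 without SHP2 sh2 replicate 1, and the correlation from 0.746 to 0.794. Most signs that turned under a scaling are given beside the lists and genes concerned. Under at least 1 of the 2 scalings those of VIM, SPARC, FN1, AXL, CAV1, TGFBI, LIMA1, KRT8, TKT, ABCC3, EPCAM and PGR also turned. With genes above the median level, olfactory receptors, liver markers and zinc finger genes turned. No paired analysis was possible because the replicate number is itself the comparison.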
